A study of Mus musculus with 6 samples.

Results

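The small leucine-rich proteoglycans (SLRPs) are a family of secreted matrix proteins, and 10 of their genes were followed here in slow-cycling and other chondrocytes of the mouse growth plate: Dcn (decorin), Bgn (biglycan), Aspn (asporin), Fmod (fibromodulin), Lum (lumican), Prelp, Omd (osteomodulin), Epyc (epiphycan), Ogn (osteoglycin, also called mimecan) and Chad (chondroadherin). They were chosen by name, as well-known members of the family, and make up 10 of the 23159 genes in the deposited count table. RNA-seq had been done in 3 independent experiments, each with 1 library of label-retaining chondrocytes (LRCs) and 1 of non-LRCs, so that each group had 3 libraries. All mice were quadruple homozygotes carrying a Col2a1-tTA allele at Peli2, a TRE-H2B-GFP allele at Col1a1, a Col2a1-creER transgene and an R26R-tdTomato reporter, and all were killed at postnatal day (P) 49. Every mouse had received doxycycline from P21 to P49, which stops H2B-GFP synthesis so that dividing cells dilute the label, and tamoxifen at P46 and P47, which turns on tdTomato in Col2a1-creER cells. The Col2a1 promoter drives both tTA and creER. Per the study, bone cells can make a little H2B-GFP without tTA, and sorted cells carried tdTomato as well as GFP. CD45-negative, tdTomato+ cells were sorted after collagenase digestion of femoral and tibial growth plates, the brightest GFP fraction as LRCs (about 10000 cells) and a middle-to-low GFP fraction as non-LRCs (about 50000 cells). Cells of several littermates were pooled in each experiment, so that animals were not measured singly and p-values describe the spread between 3 pools.

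SLRPs share a core of leucine-rich repeats, and most carry chondroitin, dermatan or keratan sulfate chains. They bind collagen fibrils, set the thickness and spacing of the fibrils, and several bind growth factors of the TGF-beta and BMP families. In cartilage, fibromodulin, decorin, biglycan and chondroadherin are established matrix components, while epiphycan is best known from the growth plate, where it is found mainly in the zone of flattened chondrocytes.

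Each library held between 18943789 and 129559872 counted reads, the smallest being the LRC library of experiment 2, in which 1731 of the 13728 genes tested were at 0. Levels are given as CPM, the reads of a gene scaled to a library of 1000000 reads after TMM correction of library sizes, and 1 count in that library was worth 0.0478 CPM. Chondrocyte markers were abundant in both groups: the summed level of the 10 markers was 85525 to 228613 CPM in LRC libraries and 141074 to 236374 CPM in non-LRCs. Col2a1 made up most of each sum. Of the 10 markers, 9 were fitted lower in LRCs and 1 higher (Sox9), with a median log2 fold change of -0.49. In edgeR 5 had an unadjusted p below 0.05, all lower, and none was called. DESeq2 and limma-voom each called 3 lower and 0 higher. Other marker lists also moved with the sort. The 5 resting zone markers were all fitted higher in LRCs, with 4 called (Pthlh, Gas1, Spon1 and Wif1), and the 8 prehypertrophic and hypertrophic markers were all fitted lower, with 3 called (Mef2c, Panx3 and Pth1r). The study named Gas1, Spon1 and Wif1 as markers from these same libraries. It also reported Pthlh and Sfrp5 as higher in LRCs and Ihh, Col10a1, Mef2c and Pth1r as higher in non-LRCs. The directions of these genes are therefore no independent check of the sort. Of 9 markers of superficial articular and synovial cells, 5 were called higher in LRCs (Prg4, Gdf5, Cilp, Clu and Thbs4), and the list summed to between 1511 and 3176 CPM in LRCs against 173 to 238 CPM in non-LRCs. Per the study, in situ hybridization also found Prg4 RNA in the resting zone, at a low level. The study also reported that nearly all tdTomato+ cells released by its digestion came from the growth plate. Endothelial markers were at or near 0, with Cdh5, Emcn and Kdr at 0 in all libraries. In bulk RNA, fewer cells of a type and less RNA per cell cannot be told apart.

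Of the 10 SLRP genes, Epyc was the only one called between LRCs and non-LRCs, and it was lower in LRCs (edgeR quasi-likelihood test with the experiment as a block, Benjamini-Hochberg adjusted p = 0.0176). Under the same rule 1.28% of all 13728 genes tested were called. Dcn, Ogn and Fmod were fitted higher in LRCs and Prelp lower, each with an unadjusted p below 0.05 but an adjusted p from edgeR above 0.05. Thus 5 of 10 SLRP genes had an unadjusted p below 0.05, where 18.4% of all genes did. None of the 10 was removed by the filter on low counts. The levels of the 10 genes in the 6 libraries are plotted per length, a scale on which they can be set against each other.

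**Figure D1:**
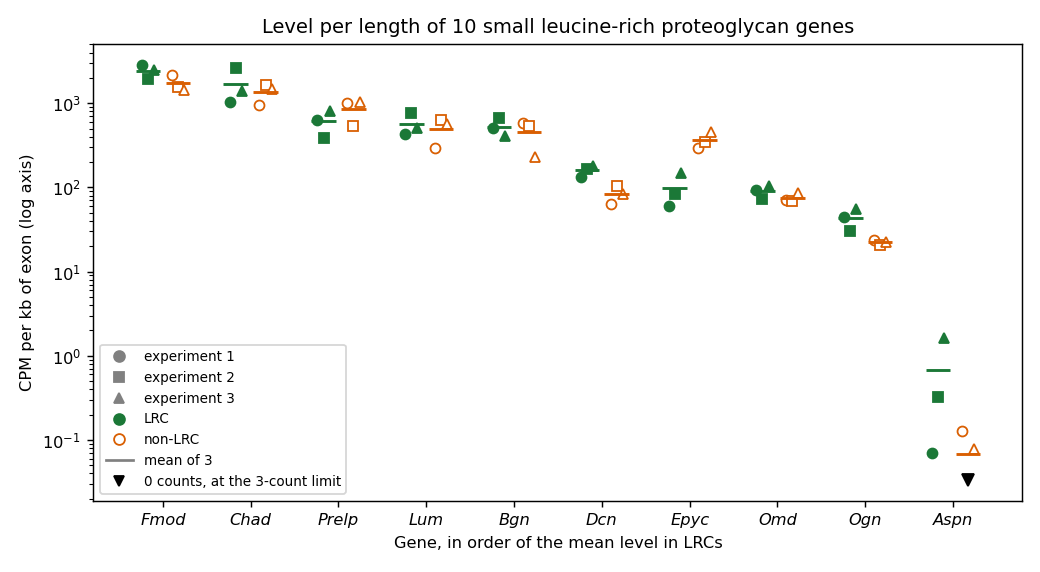
Level of each SLRP gene in every library, as CPM per kb of exon on a log axis, with filled points for LRCs, open points for non-LRCs, symbols for the 3 experiments and bars for the means. For Epyc the 3 LRC points lie below all 3 non-LRC points, for Dcn and Ogn they lie above, the groups of the other 7 genes overlap, and the triangle marks the library in which Aspn had 0 counts, at the level of 3 counts.

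Epyc encodes epiphycan, a class III SLRP that carries dermatan sulfate chains. Its gene lies on chromosome 10 from 97644068 to 97682454 on the plus strand (GRCm38, annotation GENCODE vM21). RefSeq gives it 2 starts, and the 150 bases before each are printed because Epyc is the gene whose level differed most clearly. Promoter windows of GRCm38.p6 were found in the RefSeq table for 8 of the 10 genes, and Dcn and Lum had no entry. The 3 short motifs of the TATA box (letters TATAAA), of SOX and LEF/TCF factors (core letters ACAAAG) and of RUNX factors (core letters TGTGGT) were searched on both strands. Capitals mark a match, and position -1 is the base just before the start.
Epyc, upstream start, plus strand, chr10:97643918-97644067: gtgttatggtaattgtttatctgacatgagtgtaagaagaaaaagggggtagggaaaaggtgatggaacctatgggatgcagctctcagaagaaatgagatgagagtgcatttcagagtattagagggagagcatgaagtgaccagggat
Epyc, downstream start, plus strand, chr10:97646953-97647102: tacAC-2.63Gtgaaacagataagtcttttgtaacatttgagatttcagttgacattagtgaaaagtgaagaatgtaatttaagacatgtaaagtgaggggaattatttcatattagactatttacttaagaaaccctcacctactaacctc
The upstream window held none of the motifs, and the downstream window held ACAAAG beginning at position -147. That core was present in 9.88% of all 32851 windows of the same length, and the match describes the letters, not a binding site. The downstream window lies inside the annotated span of the gene. A stretch of bases just after each start was looked for in the GENCODE transcripts of Epyc. It was found for the downstream start but not for the upstream start.

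Epyc was measured at 153.1, 214.4 and 384.3 CPM in the LRC libraries of experiments 1, 2 and 3. In the non-LRC libraries of the same experiments it was at 755.9, 895.9 and 1162 CPM. The highest LRC library thus stayed below the lowest non-LRC library, and in both groups experiment 1 was lowest and experiment 3 highest. Mean levels were 251 ± 120 CPM in LRC libraries and 938 ± 206 CPM in non-LRCs (SD, n = 3 each). The log2 difference, LRC minus non-LRC, was -2.30, -2.06 and -1.60 in the 3 experiments. The fitted log2 fold change was -1.99 (SE 0.19, 95% interval -2.44 to -1.53), so that the level was 3.97-fold higher in non-LRCs (2.90 to 5.43). The counts behind it ran from 4485 to 78088 per library, so that counting error was small beside the spread between experiments. The direction and the call held when any 1 experiment was left out, whereas without the experiment as a block the edgeR adjusted p was 0.169.

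Epyc shares 1041 exon bases, 40.6% of its exon length, with Gm10754, a gene on the opposite strand. Only unambiguous reads were counted, and the strand setting is not given in the sources used here. Whether reads from the shared bases were counted for Epyc or left out is therefore not known. Gm10754 itself had between 42 and 476 counts per library, far fewer than Epyc, and its fitted log2 fold change was -2.25 (SE 0.49, edgeR adjusted p = 0.0906). The summed level of the prehypertrophic and hypertrophic markers moved with Epyc, from 317 to 833 CPM in LRCs against 1017 to 2592 CPM in non-LRCs, and the part of that difference in the Epyc result was not tested.

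Ogn encodes osteoglycin, the other class III gene, a small proteoglycan of bone, tendon and skin that can bear keratan sulfate. Its fitted change had the opposite sign to that of Epyc. The gene lies on chromosome 13 from 49608046 to 49624501 on the plus strand, and its window is shown to set beside the Epyc windows.
Ogn, plus strand, chr13:49607865-49608014: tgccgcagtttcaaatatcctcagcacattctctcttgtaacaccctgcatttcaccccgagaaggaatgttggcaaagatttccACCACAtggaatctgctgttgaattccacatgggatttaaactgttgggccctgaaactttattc
The capitals are ACCACA, the reverse complement of the RUNX core, beginning at position -65, and the core was present in 8.40% of all windows. Positions are counted from the RefSeq start at 49608015, which lies before the GENCODE start. The stretch of bases checked just after the RefSeq start was in no GENCODE transcript of Ogn. In LRCs of experiments 1, 2 and 3, Ogn stood at 113.0, 77.0 and 141.5 CPM, and in non-LRCs at 60.6, 53.8 and 58.4 CPM. Every LRC library was above every non-LRC library, and the LRC library of experiment 2 came closest. Means were 111 ± 32.3 and 57.6 ± 3.51 CPM (SD, n = 3 each), so the spread was wider in LRCs. The log2 differences by experiment were 0.90, 0.52 and 1.28, and the fit gave 0.90 (SE 0.19, 95% interval 0.44 to 1.36). This difference did not pass the threshold (edgeR adjusted p = 0.0834). Without experiment 2 the edgeR adjusted p of Ogn was 0.0233, but it was 0.300 without experiment 1 and 0.247 without experiment 3.

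The class I genes Dcn, Bgn and Aspn encode decorin, biglycan and asporin. Decorin and biglycan bear chondroitin or dermatan sulfate chains and bind TGF-beta, and asporin carries a run of aspartate residues in place of such chains. Dcn lies on chromosome 10 from 97479609 to 97518143, on the same strand as Epyc. Its levels in LRCs were 786.5, 975.4 and 1055 CPM in experiments 1, 2 and 3, and in non-LRCs 369.8, 603.0 and 486.8 CPM. All LRC libraries lay above all non-LRC libraries, and the narrowest gap was in experiment 2. Means were 939 ± 138 CPM in LRC libraries and 487 ± 117 CPM in non-LRCs (SD, n = 3 each). The log2 differences were 1.09, 0.69 and 1.12, and the fitted value of 0.97 (SE 0.16, 95% interval 0.59 to 1.35) corresponds to a 1.95-fold higher level in LRCs. The edgeR adjusted p was 0.0540, just outside the threshold. It was 0.0151 without experiment 2, but 0.212 without experiment 1 and 0.0864 without experiment 3. The fibroblast and perichondrial markers, cells in which Dcn is abundant, summed to between 1612 and 3782 CPM in LRC libraries and 1221 to 2371 CPM in non-LRCs. Col1a2 made up most of each sum, at 1273 to 2950 CPM in LRC libraries and 868 to 2055 CPM in non-LRCs. Postn was at 0 in all LRC libraries. Of these 10 markers, 6 were tested, 5 were fitted higher and none was called by edgeR (3 higher and 1 lower at an unadjusted p below 0.05, and 3 higher and 1 lower called by DESeq2), and Clec3b was at 0 in all libraries. Their part in the Dcn result was not tested.

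Bgn, on the X chromosome from 73483602 to 73495933, showed no difference beyond the spread. It was at 3065, 4071 and 2479 CPM in LRC libraries and at 3579, 3288 and 1385 CPM in non-LRCs of experiments 1, 2 and 3. The groups overlapped and the sign turned between experiments, with log2 differences of -0.22, 0.31 and 0.84. The fitted log2 fold change was 0.31 (SE 0.23, 95% interval -0.25 to 0.86, edgeR adjusted p = 0.528).

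Aspn was close to undetected. Counts were 19, 16 and 166 in LRCs and 31, 0 and 9 in non-LRCs of experiments 1, 2 and 3. The single count table entry of 0, in non-LRCs of experiment 2, allows a level of up to 0.0785 CPM (3 counts). Experiment 1 went one way and the others the opposite way, and the fitted log2 fold change of 3.39 had an SE of 2.15 and an interval from -1.87 to 8.65 (edgeR adjusted p = 0.459). At these counts a difference in Aspn was not detectable.

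Among the class II genes, Fmod encodes fibromodulin, a keratan sulfate proteoglycan that binds type I and type II collagen fibrils. It lies on chromosome 1 from 134037254 to 134048277 on the plus strand. Its mean level per length was the highest of the 10 genes in both groups, although Chad was above it in 1 LRC library and 2 non-LRC libraries, and its window is therefore printed, which held none of the 3 motifs.
Fmod, plus strand, chr1:134037104-134037253: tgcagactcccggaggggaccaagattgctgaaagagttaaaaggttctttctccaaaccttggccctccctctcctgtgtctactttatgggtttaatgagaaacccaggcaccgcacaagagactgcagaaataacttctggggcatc
Fmod levels were 9480, 6377 and 8238 CPM in LRCs of experiments 1, 2 and 3 and 7122, 5107 and 4799 CPM in non-LRCs. LRCs were higher within every experiment, but the LRC library of experiment 2 lay below the non-LRC library of experiment 1. Means were 8032 ± 1562 and 5676 ± 1262 CPM (SD, n = 3 each). The log2 differences were 0.41, 0.32 and 0.78, and the fit gave 0.50 (SE 0.17, 95% interval 0.10 to 0.91), with an edgeR adjusted p of 0.190.

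Prelp, which lies on the minus strand of chromosome 1 from 133910304 to 133921414, encodes a protein with a basic amino-terminal stretch that binds heparan sulfate and is thought to link collagen to cell surfaces and basement membranes. Its levels were 2291, 1411 and 2957 CPM in LRC libraries and 3682, 1939 and 3753 CPM in non-LRCs. Within every experiment LRCs were lower, although the groups overlapped because both libraries of experiment 2 were low. The log2 differences were -0.68, -0.46 and -0.34, and the fitted value was -0.50 (SE 0.15, 95% interval -0.86 to -0.13, edgeR adjusted p = 0.163). Fmod and Prelp, both class II genes, thus had fitted values of almost equal size and opposite sign, and neither passed the threshold.

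Lum and Omd, the remaining class II genes, encode lumican, which regulates collagen fibrils in cornea, skin and cartilage, and osteomodulin, a keratan sulfate proteoglycan of mineralized tissue. Lum, on chromosome 10 from 97565128 to 97572703, was at 1050, 1893 and 1260 CPM in LRC libraries and 712.8, 1548 and 1369 CPM in non-LRCs. It was highest in experiment 2 in both groups, and the sign of its difference turned in experiment 3. Its fitted log2 fold change was 0.24 (SE 0.18, 95% interval -0.19 to 0.68, edgeR adjusted p = 0.522). Omd, on chromosome 13 from 49582462 to 49592822, was at 209.5, 164.9 and 235.0 CPM in LRC libraries and 158.7, 155.6 and 194.3 CPM in non-LRCs. LRCs were higher in each experiment, by log2 differences of 0.40, 0.08 and 0.27, while the groups overlapped. The fit gave 0.25 (SE 0.14, 95% interval -0.09 to 0.60, edgeR adjusted p = 0.405).

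Chad encodes chondroadherin, a class IV member without glycosaminoglycan chains, which binds type II collagen and the integrin alpha2beta1 on chondrocytes. The gene lies on chromosome 11 from 94565047 to 94569127 on the plus strand. Its window is shown because it was the only one of the 9 windows read, over 8 genes, that held a TATA box, beginning at position -28, where 7.57% of all windows hold these letters on either strand.
Chad, plus strand, chr11:94564897-94565046: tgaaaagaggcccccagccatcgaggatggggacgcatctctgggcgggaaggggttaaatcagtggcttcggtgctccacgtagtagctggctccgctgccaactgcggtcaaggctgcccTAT-2.63tgggccgggagacccgagagtc
Chad was at 1739, 4460 and 2350 CPM in LRC libraries and 1585, 2754 and 2455 CPM in non-LRCs of experiments 1, 2 and 3. As with Lum, experiment 2 held the highest library of each group, and the sign turned in experiment 3. The fitted log2 fold change was 0.25 (SE 0.19, 95% interval -0.21 to 0.72, edgeR adjusted p = 0.536).

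**Figure D2:**
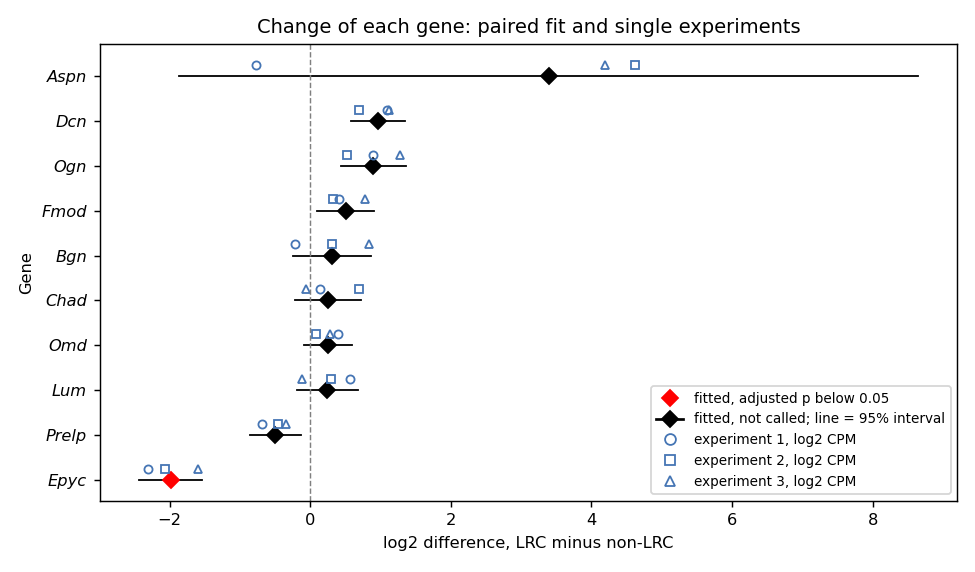
Fitted log2 fold change (LRC over non-LRC) of each SLRP gene with its 95% interval, and the difference within each of the 3 experiments as separate points. Epyc is the only gene called, at -1.99, and the interval of Aspn runs from -1.87 to 8.65, its experiment 2 point resting on a count of 0 in non-LRCs.

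Counted by direction, 8 of the 10 genes were fitted above 0 and 2 below, with a median log2 fold change of 0.28 where the median over all genes tested was -0.10 and 44.0% of them lay above 0. LRCs were higher in all 3 experiments for 4 SLRP genes (Dcn, Fmod, Omd and Ogn), and 20.4% of all genes had this pattern. They were lower in all 3 for Prelp and Epyc, a pattern of 26.0% of all genes. All LRC libraries lay above all non-LRC libraries for Dcn and Ogn, as for 8.41% of all genes, and below them for Epyc, as for 10.3%. With DESeq2 and the same block, Dcn, Fmod, Prelp, Epyc and Ogn were all called, where that tool called 12.3% of the 13751 genes to which it gave an adjusted p. The calls of Dcn, Ogn, Fmod and Prelp therefore depended on the test, while the fitted values were close under both tools (Dcn 0.97 and 0.98, Ogn 0.90 and 0.91, Fmod 0.50 and 0.51, Prelp -0.50 and -0.49).

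**Figure D3:**
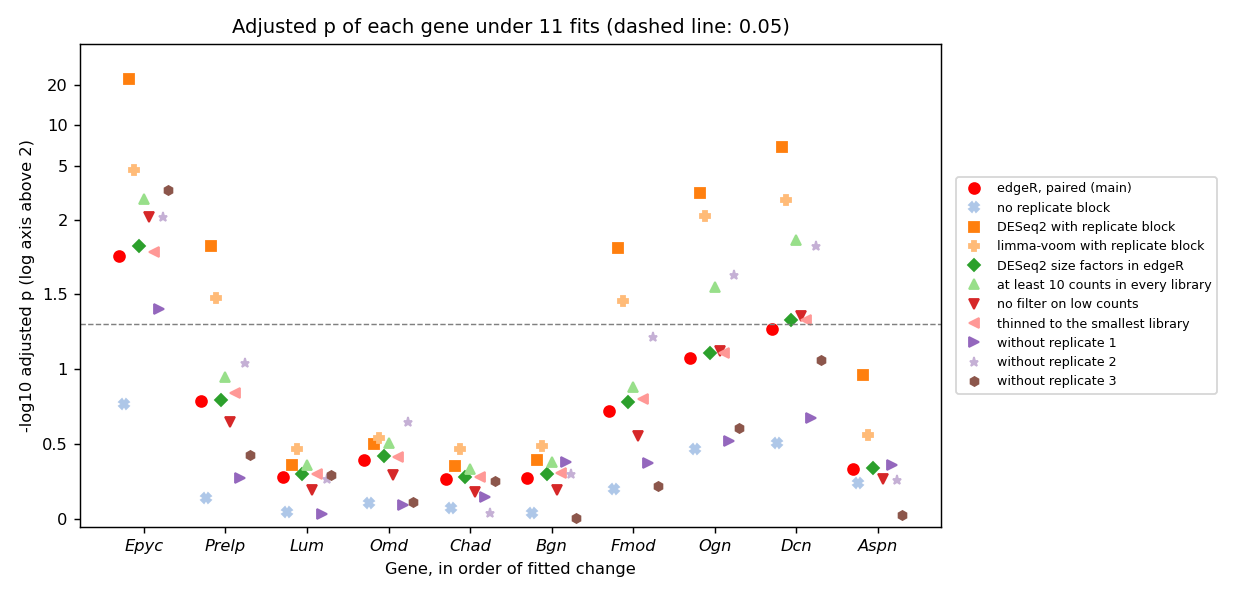
Adjusted p of each SLRP gene, as -log10 with a log axis above 2, under 11 fits, with the 0.05 threshold dashed. Epyc passes the threshold in every fit except the one without the experiment as a block, Dcn and Ogn pass in some fits, and Fmod and Prelp pass with DESeq2 and limma-voom only.

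To compare levels between genes, CPM were divided by the length of all exons of each gene in kilobases. On this scale Fmod had the highest mean in both groups, at 2429 ± 472 CPM per kb in LRCs and 1717 ± 382 in non-LRCs, and it ranked 4 to 6 among the 15974 ranked genes in the LRC libraries and 7 to 8 in the non-LRC libraries. Chad followed at 1696 ± 850 and 1348 ± 362 CPM per kb. The order in LRCs went on with Prelp (614 CPM per kb), Lum (572), Bgn (526), Dcn (161), Epyc (97.8), Omd (90.3), Ogn (43.1) and Aspn (0.678). In non-LRCs the order was the same except that Epyc (366 CPM per kb) stood above Dcn (83.3). Of neighbours in this order, the ranges over 3 libraries did not overlap in LRCs for Chad over Prelp, Bgn over Dcn, Omd over Ogn and Ogn over Aspn, and in non-LRCs for Epyc over Dcn, Omd over Ogn and Ogn over Aspn. All other neighbours overlapped, although Dcn stood above Epyc in each of the 3 LRC libraries. When the exon bases that Epyc shares with Gm10754 were left out of its length, a choice made after seeing the data, Epyc was at 165 ± 78.8 CPM per kb in LRCs and 617 ± 136 in non-LRCs. By mean, Epyc then stood directly below Prelp in non-LRCs and just above Dcn (161 CPM per kb) in LRCs. The gap to Dcn was far smaller than the SD of Epyc, and the order was not the same in every LRC library.

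The 10 genes together took 1.70 to 2.17% of all counts in LRC libraries and 1.64 to 1.69% in non-LRC libraries. Their summed level was 19212 ± 390 CPM in LRC libraries and 16678 ± 1217 CPM in non-LRCs (SD, n = 3 each), and the lowest LRC library (18888 CPM) exceeded the highest non-LRC library (18026 CPM). Per length, Fmod made up 39.5 ± 10.5% of the SLRP transcripts in LRCs and 31.6 ± 6.89% in non-LRCs, with overlapping ranges. The share of Epyc was 1.57 ± 0.77% in LRCs and 6.76 ± 1.53% in non-LRCs, and that of Dcn was 2.58 ± 0.33% and 1.54 ± 0.37%. The ratio of Dcn to Epyc per kb was 2.25, 2.00 and 1.20 in LRCs of experiments 1, 2 and 3 and 0.215, 0.295 and 0.184 in non-LRCs. Decorin transcripts thus outnumbered epiphycan transcripts in every LRC library and were outnumbered in every non-LRC library, when the whole exon length of Epyc was used. The ratio of Fmod to Prelp ran from 3.05 to 4.94 in LRCs and from 1.40 to 2.88 in non-LRCs, again without overlap. No test was run on these ratios.

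**Figure D4:**
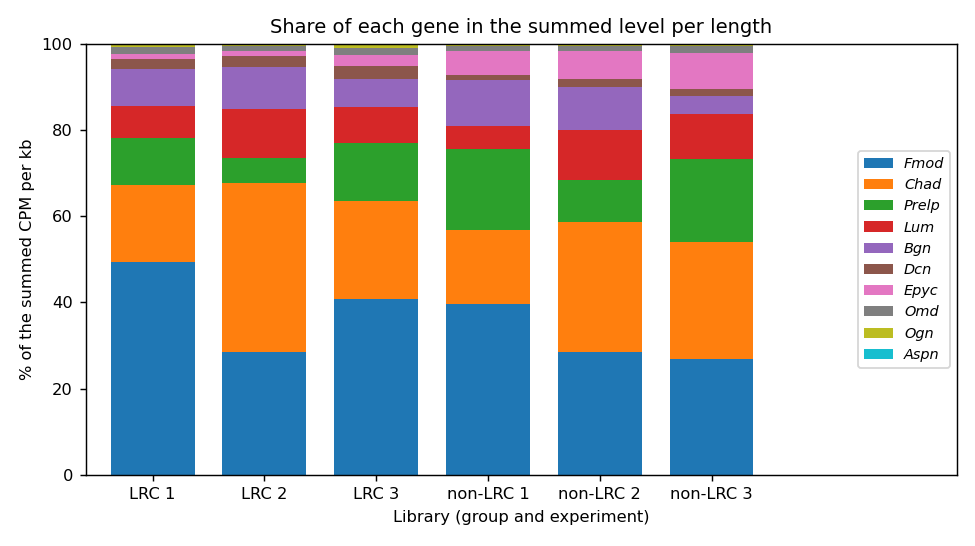
Make-up of the SLRP transcripts in each of the 6 libraries, as the percent of summed CPM per kb taken by each gene. The Epyc share is between 1.03 and 2.45% in LRC libraries and between 5.42 and 8.43% in non-LRC libraries, and Fmod and Chad together take most of every bar.

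Many SLRP genes lie side by side in the genome, and their fitted changes were compared along each cluster. On chromosome 10, Dcn, Lum, Kera (keratocan, a corneal SLRP) and Epyc follow each other on the plus strand, 47.0, 34.2 and 30.4 kb apart, with no other coding gene between them. Within this cluster the fitted log2 fold change went from 0.97 for Dcn through 0.24 for Lum to -1.99 for Epyc. Kera had too few counts to be tested, with 28, 0 and 18 in LRCs and 6, 0 and 0 in non-LRCs. On chromosome 13, Ecm2, Aspn, Omd and Ogn lie 11.7, 14.9 and 15.2 kb apart on the plus strand, all overlapping the span of Cenpp on the opposite strand, and all 4 were fitted above 0, at 1.61, 3.39, 0.25 and 0.90. On chromosome 1, Optc (opticin), Prelp and Fmod were fitted at 1.05, -0.50 and 0.50, so that the direction was mixed there too.

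**Figure D5:**
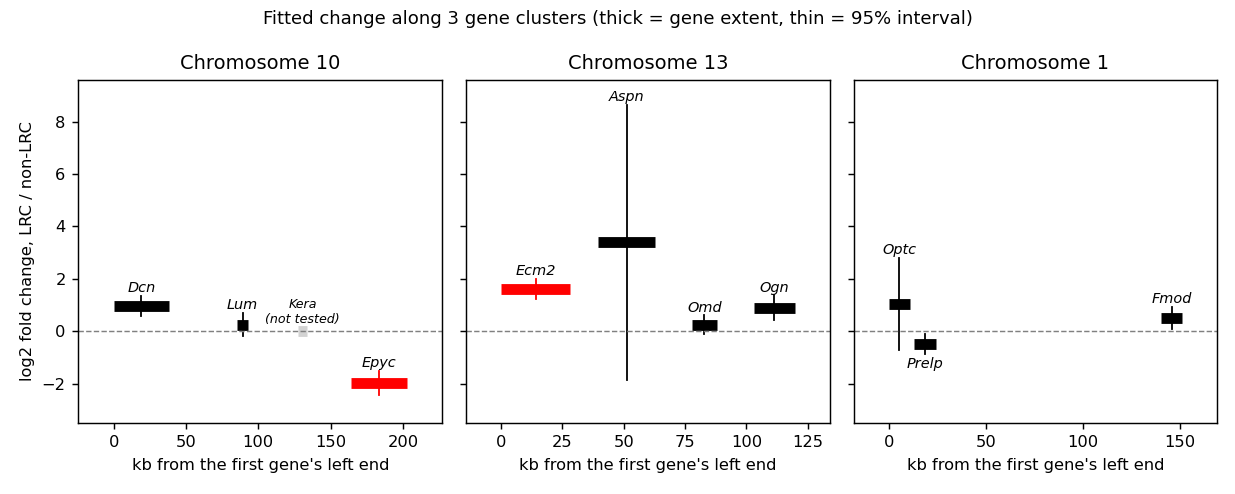
Fitted log2 fold change (LRC over non-LRC) of SLRP genes along 3 gene clusters, against distance in kb from the left end of the first gene. Thick bars span each gene, thin lines are 95% intervals and red marks the called genes Epyc and Ecm2, which lie in different clusters and have opposite signs.

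Of 8 other family genes, 6 were tested and 1 was called. Ecm2, which encodes an extracellular matrix protein with leucine-rich repeats, was at 90.6, 82.0 and 69.1 CPM in LRC libraries and 28.8, 25.3 and 24.7 CPM in non-LRCs of experiments 1, 2 and 3. The groups were far apart, and the fitted log2 fold change was 1.61 (SE 0.16, edgeR adjusted p = 0.0199), a 3.05-fold higher level in LRCs. The others were not called by edgeR, whereas DESeq2 called 2 of the family genes, both higher in LRCs, and limma-voom 1. Podn (podocan) had a fitted log2 fold change of 2.15 (SE 0.63, edgeR adjusted p = 0.155) at levels below 8 CPM, Optc 1.05 (SE 0.72), Tsku -2.40 (SE 1.63), Podnl1 0.23 (SE 0.28) and Chadl, a cartilage relative of Chad, 0.05 (SE 0.15). Nyx (nyctalopin), like Kera, had too few counts to be tested, with 0, 0 and 15 in LRCs and 34, 0 and 4 in non-LRCs.

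Calls among the genes that build the sugar chains of SLRPs were few by edgeR and differed between tools. Of 22 enzymes of chondroitin and dermatan sulfate chains, 21 were tested, 11 were fitted above 0 and 10 below (median log2 fold change 0.05). Of these, 4 had an unadjusted p below 0.05, all higher in LRCs, and DESeq2 and limma-voom each called 4 higher and 0 lower, where edgeR called 1. That gene was Ust, a sulfotransferase that adds sulfate to the uronic acid of these chains, at 77.8, 59.0 and 48.2 CPM in LRCs against 28.6, 28.3 and 20.4 CPM in non-LRC libraries (log2 fold change 1.25, SE 0.18, edgeR adjusted p = 0.0440). Of 7 keratan sulfate enzymes, 6 were tested, 5 were fitted above 0 and none was called by edgeR, DESeq2 or limma-voom, with 1 at an unadjusted p below 0.05 in edgeR (median 0.33).

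Among their partners in the matrix, 16 fibrillar and fibril-associated collagens were tested, 10 fitted above 0 and 6 below (median 0.08). By edgeR, Col1a1, a type I collagen chain, was the only one called, while DESeq2 called 3 higher and 1 lower in LRCs and limma-voom 3 higher and 2 lower. Col1a1 was at 154.0, 53.0 and 113.1 CPM against 33.7, 8.20 and 23.3 CPM (log2 fold change 2.38, SE 0.18, edgeR adjusted p = 0.0151). The sort used GFP made from the TRE-H2B-GFP allele at Col1a1, and the part of that allele in the Col1a1 result was not tested. Col2a1, the main cartilage collagen, had a fitted log2 fold change of -0.18 (SE 0.21, edgeR adjusted p = 0.709), with 63409 to 189528 CPM in LRC libraries and 99319 to 185274 CPM in non-LRCs.

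Growth factors and receptors that SLRPs bind gave 2 edgeR calls among 11 tested of 14 listed, both higher in LRCs, with 6 fitted above 0 and 5 below (median 0.02). DESeq2 and limma-voom each called 4 of the list higher and 1 lower, and Wisp1, a matricellular protein, was fitted lower, at -0.96 with an edgeR adjusted p of 0.0808. Bmp2, a bone morphogenetic protein, was at 124.2, 114.5 and 114.2 CPM in LRC libraries and 44.1, 53.9 and 38.3 CPM in non-LRC libraries (log2 fold change 1.39, SE 0.17, edgeR adjusted p = 0.0330). Tgfb3, a TGF-beta ligand, was at 116.7, 73.3 and 85.9 CPM against 52.8, 36.5 and 47.3 CPM (2.01-fold higher, SE 0.15 on the log2 scale, edgeR adjusted p = 0.0489). Proteases that process or cleave SLRPs gave 2 edgeR calls among 9 tested of 10 listed, with 6 fitted above 0 and 3 below (median 0.50). DESeq2 called 5 higher and 2 lower, and limma-voom 4 higher and 1 lower. Fitted lower were, among others, Adamts5, an aggrecan-cleaving protease, at -2.63 (edgeR adjusted p = 0.138), and Bmp1, which removes the propeptides of decorin and biglycan, at -0.51 (edgeR adjusted p = 0.176). The edgeR calls were Mmp3, a metalloproteinase with decorin among its substrates, at 299.9, 336.5 and 395.5 CPM against 120.3, 139.7 and 142.1 CPM (log2 fold change 1.35, SE 0.14, edgeR adjusted p = 0.0203), and Htra1, a secreted serine protease, at 1032, 1419 and 729.2 CPM against 504.3, 631.7 and 370.3 CPM (log2 fold change 1.06, SE 0.14, edgeR adjusted p = 0.0372). In each of these 4 genes the groups did not overlap. Tendon and ligament markers summed to 63.0 to 77.8 CPM in LRC libraries and 17.5 to 23.7 CPM in non-LRCs without overlap. Most of the LRC sums was Thbs4, at 66.1, 45.5 and 50.6 CPM against 10.1, 7.36 and 5.71 CPM in non-LRCs. Thbs4, which is also on the superficial list, was the only one called (log2 fold change 2.83, SE 0.22, edgeR adjusted p = 0.0151). Of the 5 markers, 4 were tested, 3 were fitted higher and Scx was fitted lower (log2 fold change -0.22). Osteoblast markers, of which Col1a1 is one, summed to 131 to 299 and 133 to 429 CPM. Of these 8 markers, 7 were tested, 5 were fitted lower in LRCs and 2 higher, and edgeR called only Col1a1. At an unadjusted p below 0.05 in edgeR, 3 were lower and 1 higher, and DESeq2 called 3 lower and 1 higher. Skeletal muscle markers summed to 12.3 to 23.4 and 23.6 to 43.0 CPM, and leukocyte and erythroid markers to 6.60 to 10.4 and 6.13 to 12.3 CPM.

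The genes with the pattern most like that of Epyc were sought by Pearson correlation of log2 CPM over the 6 libraries, among 7823 genes with a mean of at least 10 CPM. They were Rspo3 (r = 0.999), an R-spondin that enhances Wnt signalling, Cdk4 (r = 0.993), a cyclin-dependent kinase of G1 phase, and Lyplal1 (r = 0.992). The 6 libraries share their experiments and fall into the 2 groups, so that high r values are common and are given as a description only. Rspo3 was called, with a fitted log2 fold change of -2.04 (SE 0.29, edgeR adjusted p = 0.0440), whereas Cdk4 (-0.88, adjusted p = 0.0524) and Lyplal1 (-1.11, adjusted p = 0.0960) were not called by edgeR. Among the SLRP genes themselves, r over the same libraries ran from -0.77 for Fmod and Epyc to 0.93 for Lum and Chad, and it was -0.72 for Dcn and Epyc.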

How the data were processed

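Growth plate chondrocytes from 3 experiments were sorted into LRCs and non-LRCs, and RNA was amplified with a Takara SMART kit before Nextera XT libraries. Per the methods and submitters' notes, the authors aligned reads to mm10 (GRCm38) with TopHat2 2.0.13 and Bowtie2 2.2.1 and counted unambiguous reads with HTSeq. The annotation and strand setting are not given in the sources used here, and the sequencer model differs between the labels and the methods. The authors deposited 3 tables of 23159 genes: raw counts, counts divided by DESeq2 size factors (a signal), and regularized log2 values. Only the deposited counts were analysed. They were fitted over all genes with edgeR 4.0.16 (R 4.3.3) in a quasi-likelihood model with the experiment as a block, TMM scaling and the default filter by group (minimum count 10, minimum total 15). Benjamini-Hochberg adjusted p below 0.05 over the 13728 genes tested was called. The script was tested on simulated data. Same-numbered libraries come from the same littermates, and their deviations from the group means correlated (r = 0.197, 0.288 and 0.336). Differences within experiments and correlations used log2 CPM with a prior count of 2. Exon lengths and positions came from GENCODE vM21 and promoters from RefSeq (GRCm38.p6).

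The SLRP genes, the pathway lists and the marker lists were chosen with earlier results of these data known. Within the pathway lists, genes with an adjusted p below 0.05 were named, together with Col2a1, the detected relatives and the 3 genes most correlated with Epyc. Wisp1, Adamts5, Bmp1 and the marker genes were named after their values were seen. Alternatives were DESeq2 1.42.0, limma-voom 3.58.1, no block, other size factors, other filters, thinning to the smallest library, leaving out each experiment, and other gene lengths, of which 1 was chosen after seeing the data. Total counts per library set the precision, and a count of 0 was read as up to 3 counts, for counting error only. The reads carry no molecular identifiers.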

Additional observations from a re-analysis of the deposited data

How the results depend on the processing

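Epyc kept its direction in all 10 alternative fits (log2 fold change -2.16 to -1.83) and its call in 9. Without the replicate block edgeR called 0 SLRP genes (3 had an unadjusted p below 0.05) and 1 of all genes, against 176 with it, and the edgeR adjusted p of Epyc was 0.169 (log2 fold change -1.90). The cause was not tested. Other tools, filters and size factors called more SLRP genes. DESeq2 with the block called 5 of them and 1692 genes (847 higher, 845 lower in LRCs, against 124 and 52 in the paired edgeR fit), and limma-voom called 5 and 1361 (717 and 644). A minimum of 10 counts in every library gave 3 and 751 (421 and 330), with fewer genes tested and Aspn left out. DESeq2 size factors in edgeR gave 2 SLRP genes and 199 of all 13728 genes tested. No filter gave 2 and 256 of 17835. Thinning gave 2 and 212 of 12684, with 9 SLRP genes tested and Aspn again left out. In each of these fits Dcn was called beside Epyc, with Dcn at an edgeR adjusted p of 0.0439 to 0.0468. Leaving out 1 experiment gave 1 to 3 SLRP genes and 35 to 782 genes: 35 without experiment 1, 782 without experiment 2 (476 higher, 306 lower) and 223 without experiment 3. Of 98 values of single SLRP genes under the alternatives, 82 kept direction and side of the threshold, 15 newly passed it, 1 no longer passed it and none changed sign.

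The order per length kept 6 of 10 places in both groups with coding lengths, where Bgn moved up, 6 without shared exon bases, and 4 to 8 when 1 experiment was left out. Depth limits Aspn, Kera and Nyx, and 3 pairs limit the rest: the median SE of the 9 SLRP genes other than Aspn was 0.18 on the log2 scale.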
